A study of Mus musculus with 4 samples.

Results

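The regions described here are stretches of accessible chromatin within 10 kb of a transcription start site (TSS) that were called as peaks in macrophages given IL-4 and not in untreated ones. Peaks of 4 ATAC-seq libraries (assay for transposase-accessible chromatin, in which the Tn5 transposase cuts open DNA) were merged wherever they shared 1 bp or more on chromosomes 1 to 19, X and Y. Each merged region took the distance to the TSS and the gene name of its highest-scoring peak. A region was kept if both IL-4 libraries and neither control library had a peak in it and if that distance was 10 kb or less. The rule kept 476 IL-4-only regions of 26272 regions within 10 kb and of 60710 regions in all. They made up 1.81% of the regions within 10 kb, and without the limit on distance the same pattern was seen in 1534 regions (2.53% of all). The members were thus selected on the presence of peaks in these same 4 libraries, so their number and their scores are a description and were not tested.

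All 4 libraries came from wild-type bone marrow-derived macrophages (BMDMs) of mice aged 8 to 12 weeks on the C57BL/6 background, grown for 6 days in L929 supernatant, which supplies the growth factor M-CSF and turns marrow cells into macrophages. In 2 control libraries the cells received no further treatment, and in the other 2 libraries the cells received IL-4 at 20 ng/ml for 1 hr. The methods describe each condition as a pair of biological replicates, but the labels do not say which animals they came from, so any p-value measures the spread between these libraries. The cells are a bulk culture, in which opening of a site in more cells cannot be told apart from wider opening in each cell. Peaks had been called within 1 kb of the TSS of 5 of 8 macrophage marker genes, namely Cd68, Fcgr1, Itgam, Lyz2 and Mertk, in each of the 4 libraries. Markers were sought under 1 symbol each. At least the macrophage marker Spi1 is named Sfpi1 in the peak annotation, so a marker that was not counted need not lack a peak. No B cell, T cell or stromal marker of those listed had such a peak in any library, whereas 1 of 4 neutrophil markers (S100a8) and 1 of 3 erythroid markers had one in each. The libraries held 18336 to 21297 peaks within 10 kb of a TSS, the lowest number being in IL-4 replicate 2. The files give no read counts, so sequencing depth is unknown, and the absence of a peak is not the absence of accessible DNA.

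IL-4 binds its receptor on the macrophage surface, Janus kinases phosphorylate the transcription factor STAT6, and STAT6 dimers enter the nucleus and drive the alternative macrophage program. A STAT dimer contacts a pair of mirrored half-sites, TTC and GAA. STAT6 prefers a spacer of 4 bases between them, written TTCNNNNGAA, while most other STAT proteins prefer a spacer of 3 bases. TTCNNNNGAA is its own reverse complement, so 1 search covers both strands. A match to these letters is a description of the DNA and not a measured binding site.

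Of the 476 IL-4-only regions, 120 (25.2%, Wilson 95% interval 21.5 to 29.3%) held TTCNNNNGAA. The sequences below surround the match in the 10 highest-scoring regions that held one, ranked by the score in the weaker of the 2 IL-4 libraries. The score is the one deposited for each peak and was read from its values as −log10 of the q-value, a unit that the sources used here do not state. They are shown because these are the most strongly called regions of the class. Each line gives the plus strand of GRCm38.p6, the assembly behind mm10, with 25 bases on either side and 1 match of the region in capitals.
Gm16325, chr3:146642093-146642152: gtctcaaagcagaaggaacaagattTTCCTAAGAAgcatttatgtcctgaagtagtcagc
Nfkb1, chr3:135683655-135683714: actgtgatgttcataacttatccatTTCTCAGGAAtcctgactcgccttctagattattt
Irg1, chr14:103042955-103043014: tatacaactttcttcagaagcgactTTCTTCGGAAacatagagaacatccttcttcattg
Gfra2, chr14:70880287-70880346: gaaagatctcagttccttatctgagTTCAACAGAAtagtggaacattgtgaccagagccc
Fam20b, chr1:156710864-156710923: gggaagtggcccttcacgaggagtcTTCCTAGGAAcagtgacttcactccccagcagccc
Gm20139, chr10:19168077-19168136: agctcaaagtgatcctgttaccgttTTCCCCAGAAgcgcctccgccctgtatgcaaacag
Xrra1, chr7:99865444-99865503: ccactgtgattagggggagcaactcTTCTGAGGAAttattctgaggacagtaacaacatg
Mir101b, chr19:29142562-29142621: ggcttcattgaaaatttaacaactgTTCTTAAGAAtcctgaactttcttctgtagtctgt
Nfkb1, chr3:135689169-135689228: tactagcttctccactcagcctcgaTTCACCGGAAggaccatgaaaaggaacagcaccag
Enpp7, chr11:118980479-118980538: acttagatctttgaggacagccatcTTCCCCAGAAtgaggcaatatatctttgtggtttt

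The next 5 sequences belong to IL-4-only regions near genes of the pathway and macrophage lists used below, and are shown because they are the members of those lists, outside the first 10, that held a match. They were added after the values were seen. Tnfaip3 encodes an inhibitor of NF-κB signaling, Pdcd1lg2 the immune checkpoint ligand PD-L2, Prdm1 the repressor Blimp-1, Pik3cd a catalytic subunit of phosphoinositide 3-kinase and Tfec a transcription factor of the MITF family.
Tnfaip3, chr10:19008677-19008736: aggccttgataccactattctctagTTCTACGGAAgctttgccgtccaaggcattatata
Pdcd1lg2, chr19:29419597-29419656: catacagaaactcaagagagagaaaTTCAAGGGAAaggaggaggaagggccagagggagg
Prdm1, chr10:44449959-44450018: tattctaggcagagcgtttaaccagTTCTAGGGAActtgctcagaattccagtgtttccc
Pik3cd, chr4:149662487-149662546: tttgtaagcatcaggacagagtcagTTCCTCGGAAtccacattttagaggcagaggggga
Tfec, chr6:16898607-16898666: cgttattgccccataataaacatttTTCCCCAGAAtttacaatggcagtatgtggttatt

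The 120 regions held 134 matches, and 11 of the regions held more than 1. The first base of the spacer was C in 44.4% and T in 40.3% of the matches, counted on both strands, and G in 1.12%. In IL-4-only regions beyond 10 kb that base was C in 41.3%, T in 43.7% and G in 1.14%. The 13078 regions within 10 kb that were called in each of the 4 libraries are named shared regions. In their 994 matches it was C in 40.4%, T in 32% and G in 8.75%. A spacer with C first and G last stood in 149 of these 994 matches (15%). Among the 134 matches of the 120 regions such a spacer stood in 25 (18.7%). The commonest words were TTCCTCAGAA with 10 matches, TTCCTAAGAA with 8 and TTCCTGAGAA with 8. No single word made up the class. TTCCCCAGAA, found 6 times, is the word in the windows of Gm20139, Enpp7 and Tfec printed above.

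The match lay near the middle of the IL-4-only regions. Its median distance from the region centre was 39.8 bp, and 41 of 134 matches (30.6%) lay within 25 bp of the centre. In the shared regions the median was 97.5 bp, and 106 of 994 matches (10.7%) lay within 25 bp. In the regions called in 1 control and 1 IL-4 library the median was 38 bp, with 28 of 88 matches (31.8%) within 25 bp, so the central position was not particular to the IL-4-only regions. The IL-4-only regions had a median width of 180 bp (range 100 to 686 bp), against 370 bp for shared regions, 179 bp for control-only regions and 171 bp for those of 1 control and 1 IL-4 library. Scaled to the width, the central 25% of the region held 35.1% of the matches in IL-4-only regions and 22.6% in shared regions.

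The IL-4-only region with the highest weaker score lay 246 bp from the TSS of Gm16325, a predicted non-coding gene, in exon 1 of 4 (chr3:146642004-146642318). Its peak score was 16.67 in IL-4 replicate 1 and 15.34 in replicate 2. Nfkb1, which encodes the p105 precursor and p50 subunit of NF-κB, was near 2 of the 15 highest regions, both in intron 1 of 24. The region 7939 bp downstream of the TSS (chr3:135683419-135683764) scored 26.0 and 13.82, and the region 2379 bp downstream (chr3:135689001-135689294) scored 9.76 and 16.55, in the order of the replicates. Each of these Nfkb1 regions held 1 TTCNNNNGAA match, and they stood 5.24 kb apart. The promoter of Nfkb1 itself was called in every library, with scores of 4.85 and 7.81 in control and 5.07 and 5.3 in IL-4 cells.

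Irg1, the gene for the enzyme that makes itaconate in macrophages, had an IL-4-only region 3993 bp upstream of its TSS (chr14:103042897-103043141) with scores of 13.53 and 25.26. It held 2 matches. In the Irg1 region IL-4 replicate 2 was the higher library, whereas in the stronger Nfkb1 region it was replicate 1.

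Gfra2, a receptor for neurturin, had a region 9812 bp upstream of its TSS with scores of 12.74 and 15.24. Fam20b, a kinase of proteoglycan synthesis, had one in intron 1 with scores of 12.02 and 16.23. The region in the single intron of Gm20139, a non-coding gene 159 kb from the Tnfaip3 region, scored 22.72 and 11.19. All of these held a match, within 11 bp of the centre in Gfra2 and Fam20b and 108 bp from it in Gm20139.

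The widest IL-4-only region was 686 bp and lay 9253 bp from the TSS of Rmi2, a component of the BLM helicase complex. It scored 11.14 and 11.21, the most even pair among the 10 regions that reached a score of 10 in both libraries, and held no TTCNNNNGAA match. The TSS of Socs1, the feedback inhibitor of Janus kinases, was 58691 bp away from it. Ap2s1, a subunit of the clathrin adaptor AP-2, had a region in intron 1 that scored 10.39 and 11.27 and also held no match. Among the first 15 regions 11 held a match, and the 4 without one were those of Rmi2, Ap2s1, Gm19434 and Gm4262.

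Further regions of the first 15 scored less. Xrra1 (intron 2, 10.64 and 10.18), Mir101b (intron 8 of the transcript around it, 14.45 and 10.17) and Enpp7, which encodes an intestinal sphingomyelinase (7610 bp upstream, 8.99 and 9.62), held a match. Gm19434 (10.43 and 8.07) and Gm4262 (9.32 and 7.96) did not. Repeats covered 51.3% of the Enpp7 region, against a median of 0.524% over the class.

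Most of the 476 regions were called weakly. The score ran from 1.86 through a median of 5.14 to 26 in IL-4 replicate 1, and from 1.35 through a median of 4.12 to 25.3 in replicate 2. In 305 regions replicate 1 was higher, in 170 replicate 2, and 1 region was equal. The highest score of a region had a median of 5.53 among the IL-4-only regions and 15.5 among shared regions. Across the 476 regions the log2 scores of the IL-4 libraries had a Pearson r of 0.294 and the scores a Spearman rho of 0.217. The regions share these libraries and many share tied scores, so the correlations are given as a description only. A score of 2 or more in both libraries was reached by 466 regions.

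**Figure D1:**
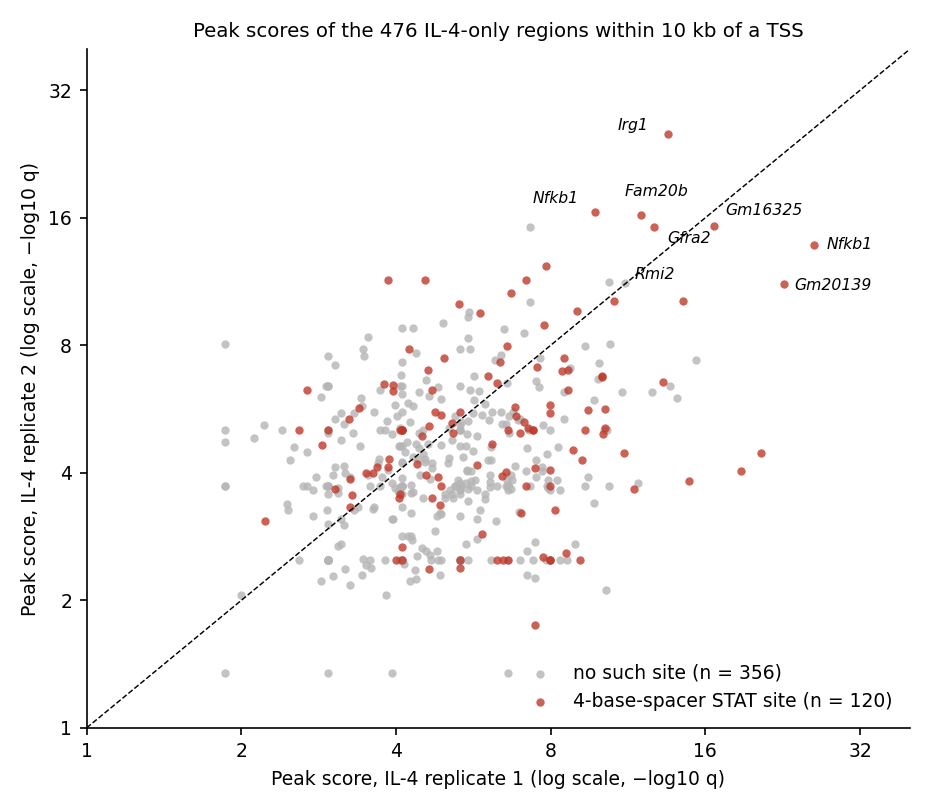
Peak score (−log10 q, log axes) of each of the 476 IL-4-only regions in IL-4 replicate 1 (horizontal) and replicate 2 (vertical), with the 120 regions that held a 4-base-spacer STAT site in red and the dashed line marking equal scores. The highest regions, among them Nfkb1, Irg1 and Gm16325, are mostly red, while the bulk of the class lies between scores of 2 and 8.

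Among the lists of genes grouped by function, macrophage transcription factors had the most IL-4-only regions. Of 227 regions within 10 kb assigned to genes of that list, 12 (5.29%) were IL-4-only, and 11 (4.85%) were control-only, meaning a peak in both control libraries and no IL-4 library. Over all regions within 10 kb the shares were 1.81% and 3.79%. Besides the pair at Nfkb1, the highest of the 12 were at Ets2 (8.74 and 7.08), Pparg (5.67 and 5.95) and Prdm1 (4.7 and 6.29). Pparg encodes the lipid-sensing nuclear receptor PPARγ, and its region lay at the TSS, 14 bp upstream (chr6:115361019-115361313). With peaks within 500 bp merged it joined a control peak, and its weaker IL-4 score then exceeded the control score by 0.83. The rest were at Maf (4.63 and 6.06), Mitf (4.41 and 4.32), Nr4a2 (4.09 and 6.8), Cebpa (4.02 and 5.46), Nfkb2 (6.71 and 3.95), Klf6 (3.25 and 3.91) and Tfec. The regions of Cebpa, Nfkb2 and Tfec were promoter regions, those of Mitf and Nr4a2 lay in intron 1, and none of these but Tfec held a match. Shared regions lay within 500 bp of the IL-4-only regions at Maf, Nr4a2, Cebpa, Nfkb2 and Klf6. Their control scores were 11.39 and 11.39 at Maf, 10.81 and 6.32 at Nr4a2 and 17.48 and 16.35 at Cebpa. At Nfkb2 they were 12.19 and 7.15, and at Klf6 5.73 and 10.11. Of the 12 regions, 4 held a TTCNNNNGAA match.

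A few regions below the first 15 are given because of the role of their genes in macrophages, and were chosen after their values were seen. Tnip3, whose product binds the Tnfaip3 protein and restrains NF-κB, had a region in intron 4 with scores of 6.7 and 10.61 and a match. Pim3, a STAT-responsive serine kinase gene, had a region 6514 bp upstream with scores of 20.5 and 4.46 and a match, and IL-4 replicate 1 was far the higher library. Itgax, the integrin CD11c, had one in intron 14 (11.03 and 6.21), and the costimulatory ligand gene Cd86 one 3701 bp upstream (9.44 and 3.91), neither with a match.

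Tfec was singled out after its values were seen, because its libraries differed so much. Its region covered the promoter, 137 bp upstream of the TSS (chr6:16898290-16898797), and scored 18.78 in IL-4 replicate 1 but 4.05 in replicate 2. It held 2 matches. A pair of IL-4-only regions further into the gene, 14358 and 51721 bp from the TSS, scored 7.02 and 3.61, and 4.11 and 5.05, and each held 1 match.

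Effector genes of alternative activation had 6 IL-4-only regions among 88 (6.82%) and 3 control-only regions (3.41%). The shares over all regions within 10 kb were 1.81% and 3.79%. Arg1, the arginase that serves as a classical marker of this state, had a region 773 bp upstream of its TSS (chr10:24928104-24928302) with scores of 3.98 and 5.77. Pdcd1lg2 had one in intron 1, 8707 bp from the TSS (chr19:29419508-29419745), with scores of 9.47 and 5.64 and the match at the very centre. Tmem26, a membrane protein gene, had a pair in intron 1, with scores of 6.75 and 5.58 and of 10.4 and 3.73. The chemokine genes Ccl12 (6.04 and 4.28) and Ccl7 (3.3 and 4.97) had 1 each. Of these 6 regions only the one of Pdcd1lg2 held TTCNNNNGAA.

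The genes that carry the IL-4 signal itself were listed as receptor chains, Janus kinases, STAT proteins and feedback regulators. They had 3 IL-4-only regions among 114 (2.63%) and 5 control-only regions (4.39%). Over all regions within 10 kb the shares were 1.81% and 3.79%. The 3 IL-4-only regions lay in intron 2 of Jak2 (6.1 and 3.95), in intron 3 of Pik3cd (7.97 and 4.06) and in exon 2 of the adaptor gene Dok1 (4.11 and 3.32). Only the Pik3cd region held a match. Inflammatory genes had 2 IL-4-only regions among 118 (1.69%) and 8 control-only regions (6.78%). One was at Tnfaip3 (6.3 and 6.51) and held a match, the other lay 9248 bp upstream of the cytokine gene Il1b (5.34 and 3.73) and did not. With peaks within 500 bp merged the Il1b region joined a control peak, and its weaker IL-4 score then exceeded the control score by 1.07. The paper reported that longer IL-4 treatment lowered Il1b mRNA and the RNA of an enhancer upstream of Il1b. Whether that enhancer is this region was not tested.

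Lipid handling genes had 2 of 84 (2.38%), namely the Pparg region and a promoter region of the scavenger receptor gene Cd36 (3.13 and 4.78), and no control-only region. Chromatin regulators had 1 of 105 (0.952%) and 7 control-only regions (6.67%). For each list the shares over all regions within 10 kb were 1.81% IL-4-only and 3.79% control-only. These lists are small, and the counts are descriptions that were not tested.

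The assignment to the nearest TSS left some known genes of the pathway with another gene's name on a nearby region. An IL-4-only region assigned to Mapkapk3 (5.47 and 4.62) lay 9182 bp upstream of the TSS of Cish, a STAT-induced feedback inhibitor. Another, assigned to Nsmce1 (6.41 and 7.59), lay 53379 bp upstream of Il4ra, the ligand-binding chain of the IL-4 receptor. The Pdcd1lg2 region was also 57519 bp downstream of the TSS of Cd274, which encodes PD-L1. Of 280 list genes placed on the assembly, 51 had an IL-4-only region within 100 kb of their TSS, and for 31 of those at least one such region had another nearest gene. Of the protein-coding genes with a region within 10 kb, 10.6% had an IL-4-only region at this reach, against 18.2% of the 258 list genes with such a region, and 24.5% and 25.6% had a control-only region. These shares were not tested, and the loci named here were chosen after their values were seen.

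Lists of genes from other libraries were set beside these regions. The study's RNA-seq of macrophages had sorted genes into clusters raised by IL-4 and a cluster lowered by it, and only those gene names were used. Those clusters came from an IL-4 time course that ran longer than the treatment of the ATAC-seq libraries. Of 2111 regions within 10 kb at raised genes, 74 (3.51%) were IL-4-only and 78 (3.69%) control-only. Of 1511 regions at lowered genes, 23 (1.52%) were IL-4-only and 76 (5.03%) control-only. For comparison, 1.81% of all regions within 10 kb were IL-4-only and 3.79% were control-only. The TTCNNNNGAA match was found in 34 of the 74 IL-4-only regions at raised genes and in 0 of the 23 at lowered genes. In the whole IL-4-only class 120 of 476 regions (25.2%) held it. The raised genes held 15.5% of the 476 regions, among them Gfra2, Rmi2, Tnfaip3, Pdcd1lg2, Tfec, Tmem26, Jak2, Arg1 and Pparg, and the lowered genes held 4.83%, among them Maf and Nfkb2. The counts were not tested.

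The 476 regions were spread over 464 genes, and 50 of them lay at predicted genes with Gm or Rik names. Only 11 genes had more than 1 region. P2ry13, a purinergic receptor gene, had 3 within 6395 bp, with scores of 6.97 and 5.36 at 5566 bp downstream, 6.43 and 3.93 at the TSS, and 3.26 and 3.33 at 668 bp upstream. The last pair each held a match. Mlkl, the effector of necroptosis, had one at the TSS (4.11 and 2.83) and one 5498 bp upstream (9.73 and 5.95).

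The other genes with 2 regions besides Nfkb1 and Tmem26 were Epsti1, Esyt1, Stxbp6, Cytip, Mcts2, Sncaip and Ccl21b. Their scores ran from 1.35 to 8.24, and repeats covered 93.6% of one of the Mcts2 regions. Ccl21b belongs to a family of near-identical copies, and its regions, 141 kb apart and with scores of 4.11 and 6.43 and of 1.86 and 1.35, are uncertain because reads can map to several copies. Over all 476 regions the median distance to the next IL-4-only region was 294760 bp. Runs of 3 with steps of at most 50 kb were counted over IL-4-only regions at any distance from a TSS. They also lay at Tfec, Tmem26 (33995 bp in all), Tes (34586 bp), Gsn (65449 bp), Adss (73112 bp) and Ang2 with Ear14 (44146 bp).

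IL-4-only regions were less confined to promoters than shared regions. Within 1 kb of a TSS lay 193 of the 476 (40.5%), between 1 and 5 kb 137 (28.8%), and between 5 and 10 kb 146 (30.7%). Of the shared regions 69.7% lay within 1 kb, and of the control-only regions 34.5%. By annotation 221 regions (46.4%) were intronic, 150 of them in intron 1, 119 (25%) at a promoter, 98 (20.6%) intergenic, 13 in other exons, 12 at transcript ends, 7 in 5′ UTRs, 4 in 3′ UTRs and 2 in non-coding exons. Downstream of the TSS lay 268 regions and upstream 208.

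**Figure D2:**
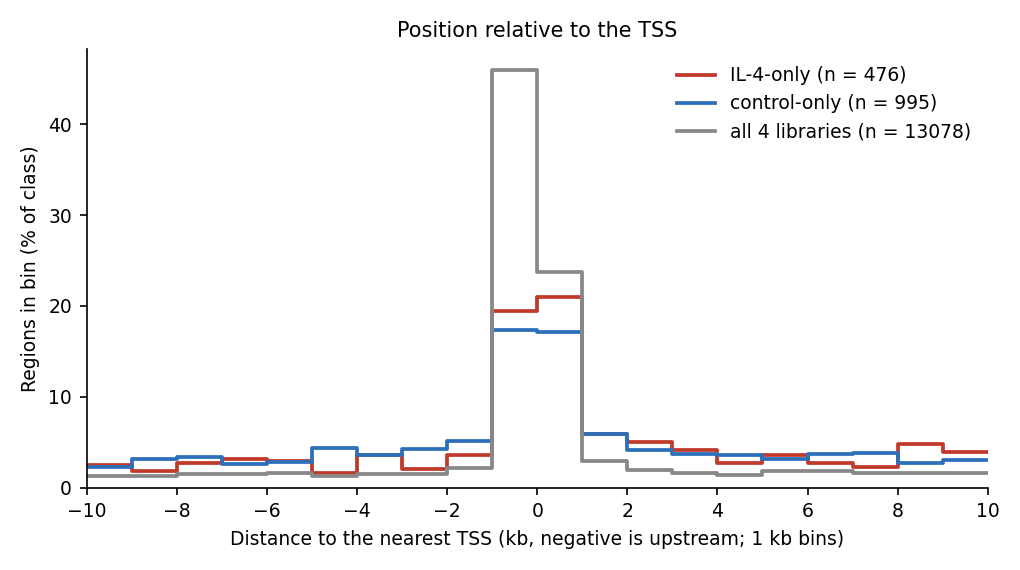
Signed distance to the nearest TSS (kb, 1 kb bins) of IL-4-only, control-only and shared (all 4 libraries) regions within 10 kb, each as a percent of its class. The shared regions peak at the TSS, with 69.7% within 1 kb, while the IL-4-only and control-only regions, with 40.5% and 34.5%, spread along the flanks.

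The promoter of the same gene was often accessible in all libraries. Of the 283 IL-4-only regions beyond 1 kb, 139 (49.1%) had a shared region within 1 kb of a TSS of their own gene, close to the 46% of control-only regions at the same distances. The nearest shared region was a median of 5436 bp away. The median GC content was 51.5%, against 60.9% in shared and 52.3% in control-only regions, and 126 regions (26.5%) were CpG island-like, with at least 50% GC and at least 0.6 of the CpGs expected from base content, against 60.1% and 21.7%.

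The 6 highest IL-4-only regions within 1 kb of a TSS were those of Gm16325, Gm20139 and Gm4262, already described, and those of Zfp217, Gm19689 and Pgd. The Zfp217 region, at 43 bp from the TSS of a zinc finger repressor gene, scored 7.62 and 7.48. The Gm19689 region scored 9.93 and 7.27. The Pgd region, in intron 1 of the gene for an enzyme of the pentose phosphate pathway, scored 7.53 and 7.11, and it was the only one of these last 3 with a match.

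The 10 kb limit separated regions of overlapping scores. The last regions inside it were at Phactr1 (9935 bp, scores 9.13 and 2.49), Ang2 (9955 bp, 8.84 and 4.53) and Eps8l3 (9986 bp, 2.95 and 2.49). The first outside were at Macrod1 (10046 bp, 3.29 and 3.73), Epha2 (10055 bp, 5.34 and 2.49) and Rara (10103 bp, 12.13 and 2.93). Ang2 lies in a cluster of ribonuclease genes, and its region held 3 matches, the most in any region named here.

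The DNA sequence was not used to choose the regions, and here the IL-4-only regions stood apart from the other classes. TTCNNNNGAA was found in 25.2% of them, in 22 of 995 control-only regions (2.21%, 1.46 to 3.33%), in 944 of 13078 shared regions (7.22%, 6.79 to 7.67%) and in 6.06% of all regions within 10 kb. Among 1985 regions with a peak in 1 control and 1 IL-4 library it was found in 4.33% (3.52 to 5.32%). IL-4-only regions beyond 10 kb had 33.5%. The intervals cover counting error only, since regions of the same libraries are not independent replicates, and no test was run over regions. The share and the number both depend on having 2 libraries a group. Without control replicate 1 there were 1191 such regions with 15.7% holding the match, and without control replicate 2 there were 885 with 17.3%. Without IL-4 replicate 1 there were 1746 with 9.62%, and without IL-4 replicate 2 there were 2139 with 10.1%. The control-only share was 1.6 to 2.67% under these settings.

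Windows of equal width gave the same order of IL-4-only, shared and control-only regions within 10 kb. In 300 bp around the centre the match stood in 27.5% of the IL-4-only regions, 4.22% of control-only regions and 5.59% of shared regions, and beyond 10 kb in 37.4% of IL-4-only regions. Regions of 1 control and 1 IL-4 library had 7.91% there, above the shared regions, whereas over whole regions they were below them. In the same windows moved by 1 kb to the left and right of the IL-4-only regions it stood in 6.72% and 7.77%. Of 32851 RefSeq promoters of 300 bp, 6.95% held the match.

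The share depended on the spacer. With spacers from 0 to 8 bases, pairs of TTC and GAA were found in 1.26 to 6.72% of the IL-4-only regions, except for 10.3% (7.87 to 13.3%) at 3 bases and 25.2% at 4 bases. At 3 bases the shared regions had 8.56% and the control-only regions 3.72%. Either spacer was present in 156 regions (32.8%) and both in 13.

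**Figure D3:**
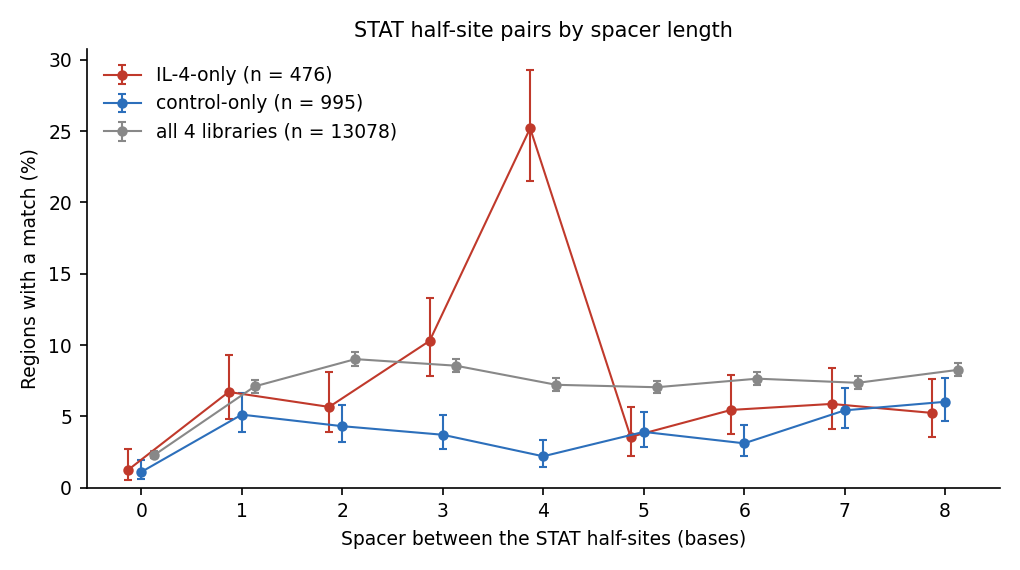
Percent of regions that held a pair of STAT half-sites, by the number of bases between the half-sites, for IL-4-only, control-only and shared regions (all 4 libraries) within 10 kb; bars are Wilson 95% intervals. Only the IL-4-only regions rise at a spacer of 4 bases, to 25.2%, while control-only regions are at 2.21% there.

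The share differed within the class. When the regions were ordered by weaker score and cut into 4 sets of 119, 51 of the highest set (42.9%), with scores from 4.66 to 15.3, held the match, and 24.4%, 16% and 17.6% of the following sets did. Within 1 kb of a TSS it was 14%, against 32.8% at 1 to 5 kb and 32.9% at 5 to 10 kb. CpG island-like regions had 7.94% and the others 31.4%. Within 1 kb the control-only regions had 1.75% and the shared regions 6.46%, so the IL-4-only regions were the highest of these classes at each distance.

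**Figure D4:**
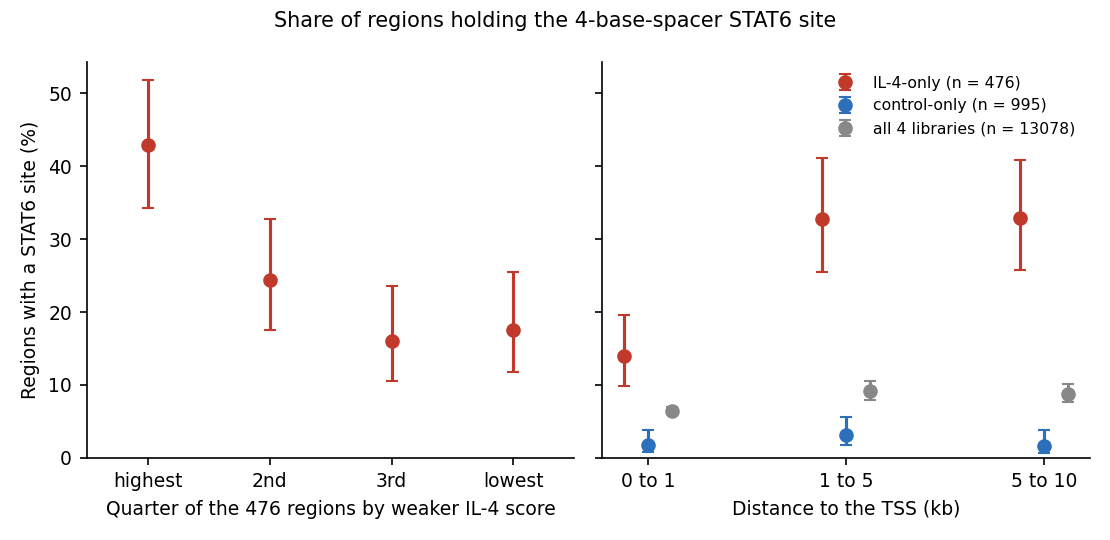
Percent of regions holding the 4-base-spacer STAT6 site, left for 4 sets of 119 IL-4-only regions ordered by weaker IL-4 score and right by distance to the TSS for 3 classes; bars are Wilson 95% intervals. The share falls from 42.9% in the highest set to 17.6% in the lowest, and is 14% within 1 kb of a TSS.

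Other motifs of macrophage factors showed no such excess over all regions within 10 kb. The AP-1 word TGACTCA stood in 12% of the IL-4-only regions and 11.8% of all regions within 10 kb, the PU.1 word GAGGAAGT in 7.56% and 7.36%, and the RUNX word TGTGGTT in 7.77% and 5.95%. The C/EBP word TTGCNNAA stood in 8.82% and 10.2%, the NF-κB word GGGANNNTCC in 3.99% and 5.27%, and the IRF word GAAANNGAAA in 4.2% and 3.17%. In control-only regions the NF-κB and IRF words were rarer, at 2.01% and 1.71%. AP-1 and C/EBP words were more frequent there, at 16.8% and 12.7%, and PU.1 and RUNX words stood in 7.64% and 7.14%. In regions of 1 control and 1 IL-4 library AP-1 words stood in 10%, PU.1 words in 7.41% and RUNX words in 4.53%. C/EBP words stood in 7.96% of them, NF-κB words in 3.63% and IRF words in 3.12%. All regions within 10 kb had a median width of 237 bp, against 180 bp for the IL-4-only regions, so whole-region shares are not matched for width. These differences were not tested. The promoter-associated words were rarer than over all regions within 10 kb. GTGGGCG (EGR) stood in 4.41% and 10.1%, CACGTG (E-box) in 3.36% and 8.51%, and GGGCGG (SP and KLF factors) in 25.2% and 40.6%. This was not particular to the IL-4-only regions. In control-only regions the 3 words stood in 3.22%, 4.02% and 17.8%. In regions of 1 control and 1 IL-4 library they stood in 4.99%, 5.44% and 24.7%. Both strands were searched. Of the 120 regions with TTCNNNNGAA, 25 (20.8%) also held TGACTCA, and in none did the 2 words overlap. The site itself was overlapped by a PU.1 word in 2 regions, by an NF-κB word in 1 and by an IRF word in 1.

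A comparison over libraries used peaks that the rule never selects. Among peaks within 10 kb that were found in 1 library only, TTCNNNNGAA stood in 2.19% and 1.79% of the control peaks and in 6.49% and 5.67% of the IL-4 peaks. The mean was 1.99% ± 0.286 (SD, n = 2) in control and 6.08% ± 0.579 (SD, n = 2) in IL-4 libraries, a difference of 4.09 percentage points. The groups did not overlap. The exact two-sided permutation test over libraries gave p = 0.3333, which is the smallest value that 2 against 2 libraries allow, so this design cannot reach 0.05.

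Over all peaks within 10 kb the shares were 4.22% and 4.03% in control and 5.52% and 5.22% in IL-4 libraries. The difference was 1.25 percentage points (exact two-sided permutation test, p = 0.3333). Here too both IL-4 libraries lay above both control libraries, and the IL-4-only regions are part of these peaks.

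**Figure D5:**
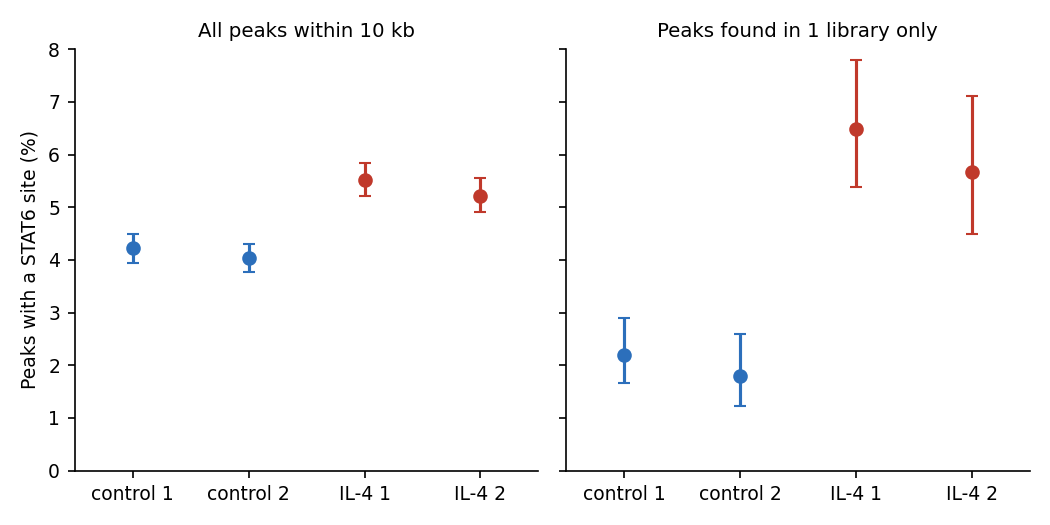
Percent of peaks within 10 kb of a TSS that held the 4-base-spacer STAT6 site in each library, for all peaks (left) and for peaks found in 1 library only (right); bars are Wilson 95% intervals for counting error. Both IL-4 libraries lie above both control libraries in each panel, from 5.22 to 6.49% against 1.79 to 4.22%.

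The scores of regions called in every library were tested with limma, to ask whether accessible sites at the same genes shifted as well. Over 25442 such regions 4 (0.0157%) were called higher and 2 (0.00786%) lower with IL-4 at a Benjamini-Hochberg adjusted p under 0.05. Of the 438 regions within 10 kb that shared a gene with an IL-4-only region, 0 were called in either direction by limma, and at an unadjusted p under 0.05 there were 13 higher and 9 lower. Their median log2 change in score was 0.0465, against 0.0211 over all 13078 regions of that kind within 10 kb and 0.056 over the 825 at genes with a control-only region. The call count over all 25442 regions was 14 without control replicate 2 and 0 without IL-4 replicate 1 or without IL-4 replicate 2, and it was 14 when replicate number was blocked and 0 without the trend.

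A pair of these neighbours is named after their values were seen, since both genes also had an IL-4-only region, at 141 bp from the TSS of Rab15 (8.91 and 2.72) and 8684 bp from that of Sla (6.55 and 4.02). At Rab15, a GTPase gene, a region 8776 bp from the TSS scored 2.22 and 4.93 in control and 12.64 and 8.31 in IL-4 cells, a log2 change in score of 1.91 ± 0.55 (SE, limma adjusted p = 0.2439). At Sla, an adaptor that dampens receptor signaling, a region scored 4.38 and 4.93, then 17.28 and 6.41 (log2 change in score 1.4 ± 0.53, limma adjusted p = 0.4226). Neither passed the threshold, although the IL-4 scores lay above the control scores in both. Falls of like size stood among the same neighbours, such as that at E030018B13Rik from 18.93 and 8.57 to 3.96 and 4.24 (log2 change in score -1.42 ± 0.52, limma adjusted p = 0.4108). The Rab15 and Sla regions each held a TTCNNNNGAA match.

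Shared regions that held the match had a median log2 change of 0.125, and 578 of 944 (61.2%) were higher with IL-4. Those without it had a median of 0.0134, and 51.3% were higher. At an unadjusted p under 0.05, 70 of the 944 were higher and 22 lower, against 359 higher and 362 lower of the 12134 without a match, and limma called 1 higher in each set. These regions are outside the IL-4-only class, and the counts are given as a description.

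Some IL-4-only regions lay close to a control peak. The gap from an IL-4-only region to the nearest peak of a control library was within 500 bp in 166 of 476 regions (34.9%) and within 100 bp in 61 (12.8%), whereas 160 (33.6%) had none within 5 kb. Among the regions with a match 25.8% had a control peak within 500 bp. The number of IL-4-only regions was also not large beside that of other patterns, since 995 regions within 10 kb (3.79%) were control-only and 1985 had a peak in 1 control and 1 IL-4 library. The latter comprise 4 pairs of libraries, with 256 to 792 regions each. When peaks within 500 bp of each other were merged, 323 regions had the IL-4-only pattern, of which 28.8% held the match, and 306 of the 476 were among them. Enpp7, Pgd, Dok1 and 7 other named regions then joined a control peak of higher score. Pparg, Pdcd1lg2, Il1b and Gm19689 joined a control peak of lower score, and their margin fell to 0.83, 0.78, 1.07 and 4.28.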

How the data were processed

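Peaks had been called by the authors in each library separately and deposited as annotated lists with a position, a peak score, the distance to the nearest TSS and a gene name. The submitters' processing notes name BWA 0.7.10, SAMtools 0.1.19, HOMER 4.2, MACS2 2.0.10 and mm10. The unit of the score is not stated in the sources used here. It was read from its values as −log10 of the q-value, as deposited by the authors. The methods name a q-value limit of 0.01, which is a score of 2 on this reading, yet 133 to 603 peaks a library scored less, so the reading is not certain.

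Peaks were merged with Python 3.11.15 and pandas 2.3.3, and bedtools 2.31.1 gave the same 60710 regions. Sequence came from GRCm38.p6, and promoters from RefSeq. Regions called in every library were fitted with limma 3.58.1 in R 4.3.3 on log2 scores after quantile normalisation, with a trend, and p-values were adjusted by Benjamini-Hochberg over all 25442. Shares per library were compared by an exact permutation test that listed every split of the libraries. Wilson intervals came from scipy 1.17.1. The scripts were tested on simulated data. Read depth is unknown from these files, and 12 mitochondrial peaks were left out.

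The members, gene lists and tests were chosen with earlier results of these data known. Named regions were the 15 with the highest weaker score, up to 5 per gene list, the 6 highest within 1 kb, genes with 2 or more regions, and 3 on either side of the limit, and 2 of these regions are not reported here. Replicate numbers were not treated as pairs. The replicate differences of the control and IL-4 groups had a Pearson r of 0.0068, which cannot tell whether libraries shared an animal. Alternatives changed the score cut-off, merging distance, distance limit, search window, normalisation, block and libraries.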

Additional observations from a re-analysis of the deposited data

How the results depend on the processing

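The match was more frequent in IL-4-only than in control-only and shared regions under every setting for which all 3 were computed. The number of IL-4-only regions was 195 above the pooled median score, of which 19 were among the 476, and 885 to 2139 with a library left out, where the share with a match was 9.62 to 17.3%. The other settings gave 323 to 478 regions and 21.8 to 28.8%. The difference between libraries kept its direction under all settings, at 0.834 to 1.41 percentage points for all peaks and 3.38 to 9.08 for peaks of 1 library. The largest of the latter were 7.34 and 7.96 with an IL-4 library left out and 9.08 above the pooled median score. Under these settings the peaks of 1 library can include IL-4-only regions that the rule selected. The other settings gave 3.38 to 5.41. As a replicate block, the pairs gave 1.25 and 4.09 points (exact permutation p = 0.5, the smallest possible). The limma count of 6 was 14 with the replicate block, 0 without the trend, and 0 to 14 with a library left out, where the lone library of a group is assumed to vary like the other group. The cause was not tested.

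With peaks within 500 bp merged, the weaker IL-4 score minus the highest control score turned negative in 10 of 53 named regions, since they joined a control peak. The values were -1.08 for Enpp7, -6.58 for Pgd, -11.5 for Esyt1, -6 for Stxbp6, -0.65 and -0.25 for Sncaip, -6.25 for Dok1, -4.55 for P2ry13, -6.01 for Mlkl and -1.35 for Mcts2. It stayed positive but moved to 0.83 for Pparg, 0.78 for Pdcd1lg2, 1.07 for Il1b and 4.28 for Gm19689. Without read counts, no limit of detection could be given for regions that lacked a peak.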
